A study of Homo sapiens with 8 samples.

Results

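The genes described here are 28 homeobox genes, namely NKX, DLX, IRX and EMX genes with SIX2, SIX4, SIX5 and SIX6, looked up in DNA recovered with RNA oligos. They were chosen by family name and not by any measured value, and beside those 4 comprise 10 NKX, 6 DLX, 6 IRX and 2 EMX genes, of 19126 autosomal protein-coding genes. All 28 lie on autosomes. A region counted for a gene when the authors' list wrote the gene's symbol beside it, and 174 of the 327994 listed regions did so, 153 of them captured and 21 control. Of these regions, 7 named 2 of the genes, which gives 181 pairs of gene and region.

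DNA came from H1, a human embryonic stem cell line, was freed of RNA and sonicated to 200 to 300 bp, and 6 to 7 µg of it was kept at 37 °C for 1 h with 5 mM MgCl2 and 50 mM KCl. The 4 groups of 2 libraries each received no oligo, or 20 pmol of a biotinylated RNA oligo, of which GATA6-AS TFR1 is one and MEG3 TFR1 and MEG3 TFR2 are the others, and RNA-bound DNA was taken up on streptavidin beads and sequenced. MEG3 is an imprinted long noncoding RNA, and GATA6-AS is transcribed opposite to GATA6, the gene of an endoderm and heart transcription factor. Purified DNA of 1 cell line was used, so nothing here measures the activity of a gene or binding inside a cell, and cell type markers cannot be checked in it. For each oligo there is a captured list, whose regions had a higher signal when the oligo was present, and a control list, whose regions had a higher signal when it was absent. The 3 comparisons share the no-oligo libraries, so their values are given side by side. Each region carries 1 log2 ratio from the authors, oligo over no oligo, with no error, no value per library and no read depth. No difference below was therefore tested, and shares over all protein-coding genes stand beside the counts.

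Homeobox genes encode transcription factors that bind DNA through a homeodomain and give cells their regional identity in the embryo. These families pattern the forebrain, sense organs, branchial arches, heart, kidney, gut and skeleton. In embryonic stem cells many such developmental genes are held silent by Polycomb complexes and are rich in CpG islands. An RNA can bind the major groove of duplex DNA as an added strand, mostly along a purine-rich stretch of one DNA strand, which is why purine runs are marked in the sequences.

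The promoters shown have a window that overlapped a captured region, the window running from 250 bases before to 50 bases after the start in RefSeq (GRCh38.p14). Windows of DLX6 and of another NKX2-1 start also did so and are not printed. That NKX2-1 window (chr14:36520183-36520482) had all 300 bases in a GATA6-AS TFR1 region and 0 in MEG3 TFR1 regions. Captured DNA covered the start itself at SIX4 and NKX2-1, and lay before it at NKX2-8, NKX2-4 and SIX6. Windows were given for 17 of the 28 genes, 21 windows in all. GATA6-AS TFR1 regions overlapped windows of 6 genes, MEG3 TFR1 regions those of SIX4 and NKX2-1, and MEG3 TFR2 regions those of 0 genes. GATA6-AS TFR1 thus reached 7 of the 21 windows, beside 14.6% of all 33725 windows in the same table, MEG3 TFR1 reached 2, beside 6.54%, and MEG3 TFR2 reached 0, beside 3.16%. Control regions overlapped 0 of the 21 windows with each oligo. Capitals mark the longest run of purines (A and G) on either strand. Runs on the strand opposite to the one printed show as C and T. Each sequence is printed in the direction of transcription.
SIX4: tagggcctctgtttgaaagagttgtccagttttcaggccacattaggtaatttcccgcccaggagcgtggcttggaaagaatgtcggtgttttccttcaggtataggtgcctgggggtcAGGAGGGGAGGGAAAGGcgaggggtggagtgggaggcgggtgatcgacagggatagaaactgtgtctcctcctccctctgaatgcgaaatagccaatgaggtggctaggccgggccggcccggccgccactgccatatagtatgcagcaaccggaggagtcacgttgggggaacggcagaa
NKX2-1: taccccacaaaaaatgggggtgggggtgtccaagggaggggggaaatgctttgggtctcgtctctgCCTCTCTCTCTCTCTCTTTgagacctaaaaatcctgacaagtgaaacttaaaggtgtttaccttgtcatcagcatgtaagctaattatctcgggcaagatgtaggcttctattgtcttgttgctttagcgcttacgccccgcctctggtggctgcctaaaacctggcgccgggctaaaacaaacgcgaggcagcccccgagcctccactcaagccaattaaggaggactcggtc
NKX2-8: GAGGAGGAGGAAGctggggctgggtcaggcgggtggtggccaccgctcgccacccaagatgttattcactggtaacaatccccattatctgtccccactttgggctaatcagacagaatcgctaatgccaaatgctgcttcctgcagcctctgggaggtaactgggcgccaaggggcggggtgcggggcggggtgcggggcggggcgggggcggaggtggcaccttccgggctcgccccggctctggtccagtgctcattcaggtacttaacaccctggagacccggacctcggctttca
NKX2-4: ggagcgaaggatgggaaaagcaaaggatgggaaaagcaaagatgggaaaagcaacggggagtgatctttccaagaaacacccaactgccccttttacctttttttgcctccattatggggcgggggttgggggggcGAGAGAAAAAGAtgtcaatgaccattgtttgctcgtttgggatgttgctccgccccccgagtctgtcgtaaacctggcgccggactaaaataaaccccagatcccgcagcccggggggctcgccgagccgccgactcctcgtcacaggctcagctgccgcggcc
SIX6: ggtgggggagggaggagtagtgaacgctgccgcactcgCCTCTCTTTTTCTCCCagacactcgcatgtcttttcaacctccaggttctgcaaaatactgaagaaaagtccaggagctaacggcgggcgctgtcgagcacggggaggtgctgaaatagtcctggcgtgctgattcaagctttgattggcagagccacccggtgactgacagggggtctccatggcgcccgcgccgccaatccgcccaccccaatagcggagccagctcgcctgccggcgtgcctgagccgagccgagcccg

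The SIX4 window (chr14:60724302-60724601, minus strand) belongs to a muscle and sensory placode regulator. Its last 199 bases lay inside a MEG3 TFR1 region with a log2 ratio of 2.66 and inside a GATA6-AS TFR1 region with a log2 ratio of 2.27, and both contained its purine run of 17 bases. Of all windows, 11.9% had a run at least this long. NKX2-1 sets thyroid, lung and ventral forebrain identity. Its printed window (chr14:36519507-36519806, minus strand) held a run of 19 bases on the opposite strand, a length reached in 7.28% of windows. All 300 bases of it lay in a MEG3 TFR1 region (log2 ratio 0.98) and 256 in a GATA6-AS TFR1 region (1.98). The printed windows of SIX4 and NKX2-1 were therefore reached by the same pair of oligos. The higher value came from MEG3 TFR1 at SIX4 and from GATA6-AS TFR1 at NKX2-1.

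The other 3 windows printed were reached by GATA6-AS TFR1 regions only, among the 3 oligos. At NKX2-8 (chr14:36582565-36582864, minus strand), 2 narrow regions of 150 bp with log2 ratios of 1.82 and 2.03 met the window, and the second covered its run of 13 bases. At SIX6, an eye and pituitary regulator (chr14:60508896-60509195, plus strand), the first 205 bases lay in a region at 1.34, run of 16 bases included. At NKX2-4, a close relative of NKX2-1 (chr20:21397477-21397776, minus strand), the first 126 bases lay in a region at 2.28 that ended before the run of 12 bases. In the window of DLX6, a craniofacial and forebrain regulator, only the last 2 bases were covered. The longest run thus lay inside captured DNA in 4 of the 6 genes. This count depends on how much of a window was covered, from 2 bases at DLX6 to all 300 at NKX2-1. The same share over all overlapped windows was not computed, so no conclusion is drawn from it. Runs of at least 12 bases were found in 44.7% of all windows and runs of at least 13 in 34.1%, so those of NKX2-4 and NKX2-8 were of common length. A purine run is a description of the letters and does not mark a site where the RNA bound.

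By the authors' names, 13 of the genes were overlapped by a captured region of some oligo, and with each oligo the share was below that of all protein-coding genes. An unmarked symbol in the lists is read as a gene that the region overlaps, and a symbol followed by a sign as a flanking gene. By RefSeq coordinates, 10 of the 46 pairs of captured region and unmarked member lay off the gene, by up to 960 bp. Among them were the only such pairs of NKX2-4 and IRX5, and the only ones of SIX2 with GATA6-AS TFR1 and of DLX5 with MEG3 TFR2. MEG3 TFR1 regions named 7 of the 28 genes as overlapped (25%, beside 43.8% of all protein-coding genes), which were NKX6-3, DLX1, SIX2, SIX5, IRX5, EMX1 and EMX2. MEG3 TFR2 regions named 4 (14.3%, beside 42.1%), which were NKX2-3, DLX5, SIX2 and EMX1. GATA6-AS TFR1 regions named 8 (28.6%, beside 50.5%), which were NKX2-4, DLX2, DLX4, DLX5, SIX2, SIX5, IRX6 and EMX1. SIX2 and EMX1 were named with all 3 oligos, DLX5 and SIX5 with 2, and 9 genes with 1. The remaining 15 genes were named as overlapped with 0 oligos.

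The members are short genes, with a median length of 5118.5 bp beside 24476.5 bp for all protein-coding genes, and a longer gene offers more room to a region. The part of length in these shares was not tested. Within 100 kb of a member the median number of captured regions was 15 in the list of GATA6-AS TFR1, 10 in that of MEG3 TFR1 and 7 in that of MEG3 TFR2. Around all protein-coding genes the medians were 14, 12 and 10 in the same order. These windows include the gene and are wider for longer genes. Per Mb of window, the members' medians were 72.8, 48.9 and 34.1 regions, beside 52, 47.6 and 37.4 for all protein-coding genes. Per Mb the members' median was thus higher with GATA6-AS TFR1, near the background with MEG3 TFR1 and lower with MEG3 TFR2.

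Flanking names reached every member in at least 1 captured list. Counting overlapped and flanking names together, MEG3 TFR1 regions named 24 of the genes (85.7%, beside 77.4%), MEG3 TFR2 regions 22 (78.6%, beside 74.6%) and GATA6-AS TFR1 regions 26 (92.9%, beside 79.6%). A plus sign stood for a gene at higher coordinates than the region in 107 of 108 cases, and a minus sign for a gene at lower coordinates in 27 of 27. Flanking regions lay up to 99253 bp from the gene, with a median of 18804 bp, so a flanking name says that a region lies in the neighbourhood and little more.

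Position gave a fuller picture than the names. By coordinates, 52 captured regions lay on the RefSeq body of a member without the member's unmarked symbol, at 20 of the genes. Of these, 33 named another gene as flanking only, 9 another gene as overlapped, 9 no gene, and 1 named the member itself as flanking. DLX3, IRX4 and NKX2-2, for example, were named as overlapped with 0 oligos although 6, 5 and 5 captured regions lay on them. Positions are therefore used from here on.

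Captured regions lay on 18 of the 28 gene bodies with MEG3 TFR1 (64.3%, beside 62.6% of all protein-coding genes), on 6 with MEG3 TFR2 (21.4%, beside 59.3%) and on 20 with GATA6-AS TFR1 (71.4%, beside 69.9%). With 1 kb added at each end, the counts were 19 (67.9%, beside 66.0%), 9 (32.1%, beside 62.5%) and 24 (85.7%, beside 73.9%). The share with MEG3 TFR2 was far below the background and the lowest of the 3, whereas the share with MEG3 TFR1 lay near it. Regions within 1 kb of either end of a gene were found at 17 members with MEG3 TFR1 (60.7%, beside 29.4%), 6 with MEG3 TFR2 (21.4%, beside 23.2%) and 22 with GATA6-AS TFR1 (78.6%, beside 48.8%). At gene ends the members thus stood above the background with 2 of the oligos, and near it with MEG3 TFR2.

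Among 53 other homeobox genes, such as LHX, OTX and PITX genes, 75.5%, 62.3% and 90.6% had a region on them or within 1 kb with MEG3 TFR1, with MEG3 TFR2 and with the GATA6-AS oligo. Their median length was 11262 bp, longer than the members. At gene ends the shares of these genes were 49.1%, 30.2% and 73.6%. At gene ends these genes, too, stood above the background with all 3 oligos, and on the gene or within 1 kb their MEG3 TFR2 share of 62.3% lay near the background, where that of the members was 32.1%.

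**Figure D1:**
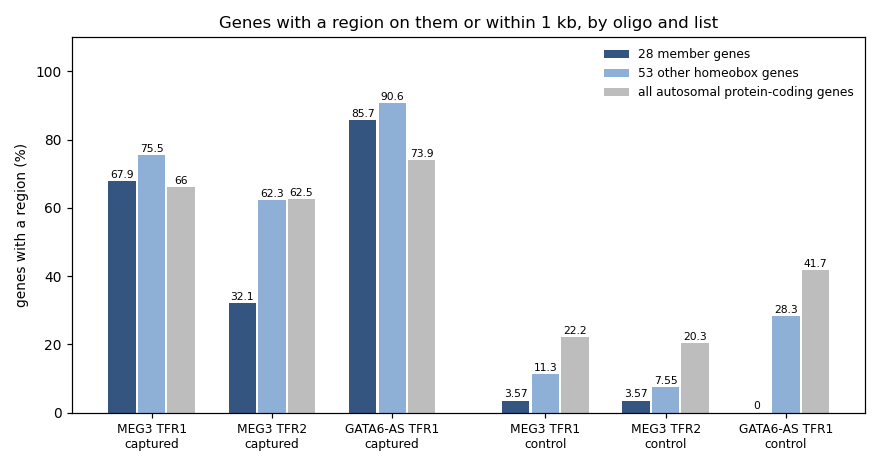
Share of genes (percent, y axis from 0) with at least 1 region on the gene or within 1 kb, by oligo, for captured (left) and control (right) lists; dark bars are the 28 members, light blue bars the 53 other homeobox genes and grey bars all autosomal protein-coding genes. With MEG3 TFR2 the members' bar (32.1%) is well under the grey bar (62.5%), and in the control lists the members' bars are at 3.57% or 0.

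EMX1, a patterning gene of the dorsal forebrain and cerebral cortex, held the most captured regions of any member, 19 on the gene or within 1 kb. It is also the longest, with 18703 bp at chr2:72916189-72934891, and 10.7% of it lay in regions of GATA6-AS TFR1, 9.62% in those of MEG3 TFR1 and 7.49% in those of MEG3 TFR2. Its 7 MEG3 TFR1 regions had log2 ratios from 0.76 to 1.94, its 6 MEG3 TFR2 regions from 0.69 to 2.21, and its 6 GATA6-AS TFR1 regions from 0.83 to 1.90. These ranges include regions beside the gene: on the gene body itself, the 5 MEG3 TFR1 regions ran from 1.39 to 1.65, the 4 MEG3 TFR2 regions from 1.36 to 2.21 and the 4 GATA6-AS TFR1 regions from 0.83 to 1.49. Inside the gene lay a MEG3 TFR1 region at chr2:72923901-72924250 (log2 ratio 1.39), a MEG3 TFR2 region at chr2:72923701-72924150 (1.90) and a GATA6-AS TFR1 region at chr2:72923501-72924200 (1.49). Beyond the upper end of the gene lay the widest MEG3 TFR2 region of any member, 1300 bp at a low ratio of 0.69. EMX2, the partner of EMX1 in cortex and a urogenital regulator, had a single region on it, with MEG3 TFR1 at 1.35.

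SIX2 keeps nephron progenitors of the kidney in an undifferentiated, self-renewing state, and was the other gene named as overlapped with all 3 oligos. MEG3 TFR1 had 3 regions there, at 1.51, 1.05 and 1.57. MEG3 TFR2 had 2, at 0.96 and 2.45, of which the latter (chr2:45007851-45008250) was the highest value of that oligo at any member. GATA6-AS TFR1 had 2, at 0.88 and 1.37. All 3 oligos had a region near the lower end of the gene, whereas a region in its middle came with the MEG3 oligos. Regions covered 21.1% of SIX2 with MEG3 TFR1 and 22.2% with MEG3 TFR2. Of all protein-coding genes, 2.35% and 0.847% were covered at least that far by the same oligos. With GATA6-AS TFR1 the covered part of SIX2 was 9.37%, an extent reached by 23% of protein-coding genes. A region takes up a larger share of a short gene. The part of length in the covered shares given here and below was not tested.

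SIX5, which lies beside the myotonic dystrophy kinase gene DMPK, was the member most covered by captured DNA. GATA6-AS TFR1 had 5 regions there with log2 ratios in a narrow span from 1.35 to 1.52, and they covered 60.8% of the gene, an extent reached by 0.68% of protein-coding genes. The first of them, 1950 bp at chr19:45763251-45765200 with a ratio of 1.47, was the widest captured region of any member with that oligo. MEG3 TFR1 had 4 regions, from 1.22 to 1.75, which covered 30.6% of the gene, and MEG3 TFR2 had 1 below the gene, at 2.35. The number of regions was thus highest with GATA6-AS TFR1 and the single highest ratio came with MEG3 TFR2. SIX4 had 2 regions with MEG3 TFR1, at 0.95 and 2.66, and 2 with GATA6-AS TFR1, both at 2.27 to 2.28. The value of 2.66, at the SIX4 promoter shown above, was the highest of MEG3 TFR1 on any member or within 1 kb. SIX6 had 1 region with MEG3 TFR2, at 1.53, and 1 with GATA6-AS TFR1, at 1.34.

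DLX genes lie in pairs that face each other, and pattern the forebrain and the branchial arches. The pair of DLX3, a skin, hair and tooth regulator, and DLX4, which is expressed in placenta, was densely covered by GATA6-AS TFR1. DLX4 carried 6 of its regions, from 1.09 to 1.69, over 57.1% of the gene. DLX3 had 7 on it or within 1 kb, from 1.04 to 2.12, of which the 5 on the gene covered 45.5% of it. Of all protein-coding genes, 0.878% and 2.17% were covered at least that far. MEG3 TFR1 had 3 regions at DLX4, from 1.73 to 1.87, and 2 at DLX3, at 1.05 and 1.70, while MEG3 TFR2 had 1 at DLX4, at 2.03, and 0 at DLX3. Within 100 kb of DLX4 lay 50 captured regions of MEG3 TFR1, 35 of MEG3 TFR2 and 71 of GATA6-AS TFR1, well above the members' medians, so the whole stretch was rich in captured DNA.

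**Figure D2:**
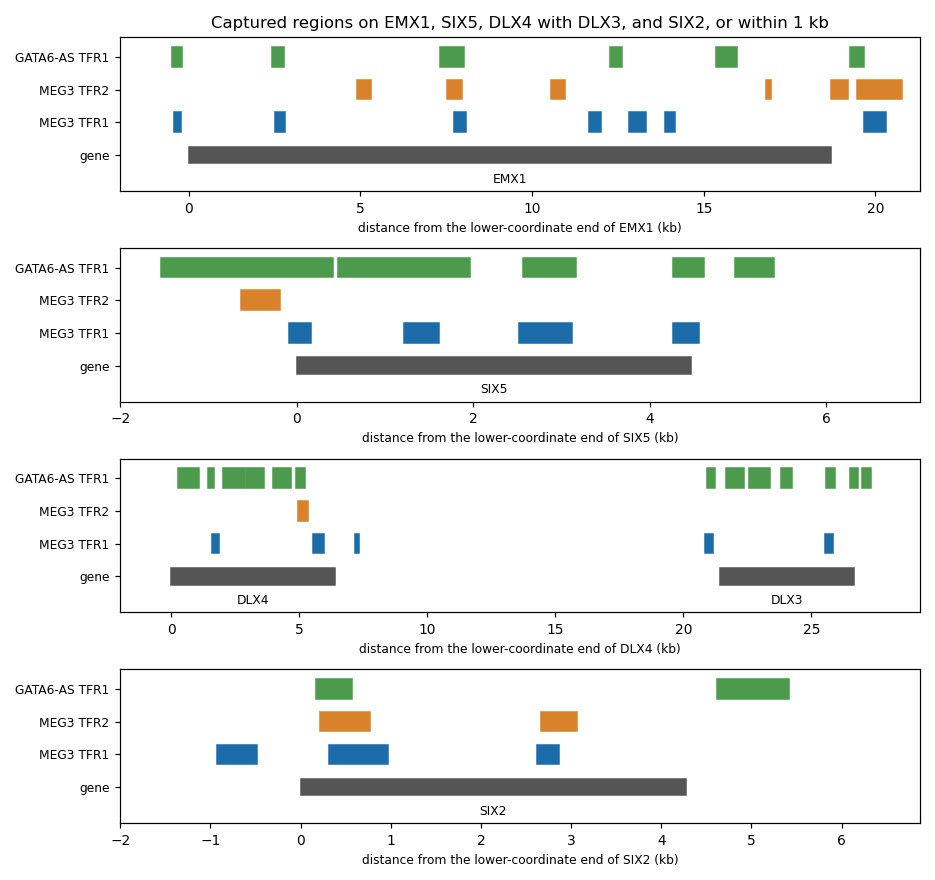
Captured regions (coloured boxes, 1 row per oligo) along EMX1, SIX5, DLX4 with DLX3, and SIX2 (grey bars), drawn to scale against the distance in kb from the lower-coordinate end of the gene. At EMX1 all 3 oligos have 6 or 7 regions on the gene or within 1 kb of it. At SIX5, DLX4 and DLX3 the GATA6-AS TFR1 boxes cover 45.5% to 60.8% of the gene.

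DLX1 and DLX2, regulators of forebrain interneurons, lie side by side on chromosome 2. DLX1 held 2 MEG3 TFR1 regions, at 1.40 and 1.57, over 24% of its length. GATA6-AS TFR1 had 4 regions on DLX1 or within 1 kb, from 0.76 to 1.37, of which 2 lay on the gene. DLX2 held 1 MEG3 TFR1 region at 1.90, 1 MEG3 TFR2 region at 1.06, and 2 GATA6-AS TFR1 regions at 1.03 and 1.45. With 1 kb added at both genes, GATA6-AS TFR1 had more regions than MEG3 TFR1, and MEG3 TFR1 had the higher ratios. At DLX5, a regulator of bone and craniofacial development, the GATA6-AS TFR1 region at chr7:97023651-97024100 had a ratio of 2.39, the highest of this oligo among regions named as overlapping a member. A second one, at 1.48, and single regions of MEG3 TFR1 (1.12) and MEG3 TFR2 (1.37) were lower. Its partner DLX6 had 2 GATA6-AS TFR1 regions, at 1.75 and 1.46, and 1 MEG3 TFR1 region, at 1.88.

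The NKX2 genes were mostly reached by GATA6-AS TFR1. NKX2-2, which sets ventral neural tube and pancreatic endocrine identity, had 6 GATA6-AS TFR1 regions on it or within 1 kb, from 1.20 to 2.48. Of these, 4 lay on the gene, and MEG3 TFR1 had 1 region there, at 1.05. NKX2-1 held 3 GATA6-AS TFR1 regions, from 1.41 to 1.98 and over 30.9% of the gene, and 1 of MEG3 TFR1, at 0.98. NKX2-8 had 4 GATA6-AS TFR1 regions on it or within 1 kb, from 1.19 to 2.03, of which 1 lay on the gene. NKX2-4 and NKX2-6, a pharyngeal and heart regulator, had 1 each, at 2.28 and 2.17. The exception was NKX2-3, needed for spleen and gut vasculature, which had 1 region with MEG3 TFR2, at 1.52, and 0 with the other oligos. Among these 6 genes, MEG3 TFR2 thus had a region at NKX2-3 alone.

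NKX6-1, a regulator of pancreatic beta cells and motor neuron progenitors, ran the other way, with 4 MEG3 TFR1 regions from 1.47 to 2.56 and 1 GATA6-AS TFR1 region at 1.74. NKX6-3, a stomach regulator, held 2 MEG3 TFR1 regions at 1.54 and 1.85, the latter being the highest of that oligo among regions named as overlapping a member, and 2 GATA6-AS TFR1 regions at 0.91 and 1.33. NKX3-2, a regulator of axial skeleton and cartilage, had 1 GATA6-AS TFR1 region, at 0.81. NKX6-2, which acts in oligodendrocytes, had 0 regions on it or within 1 kb with the 3 oligos. Its nearest named captured region, with GATA6-AS TFR1, lay 3154 bp above the gene with a ratio of 0.96.

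**Figure D3:**
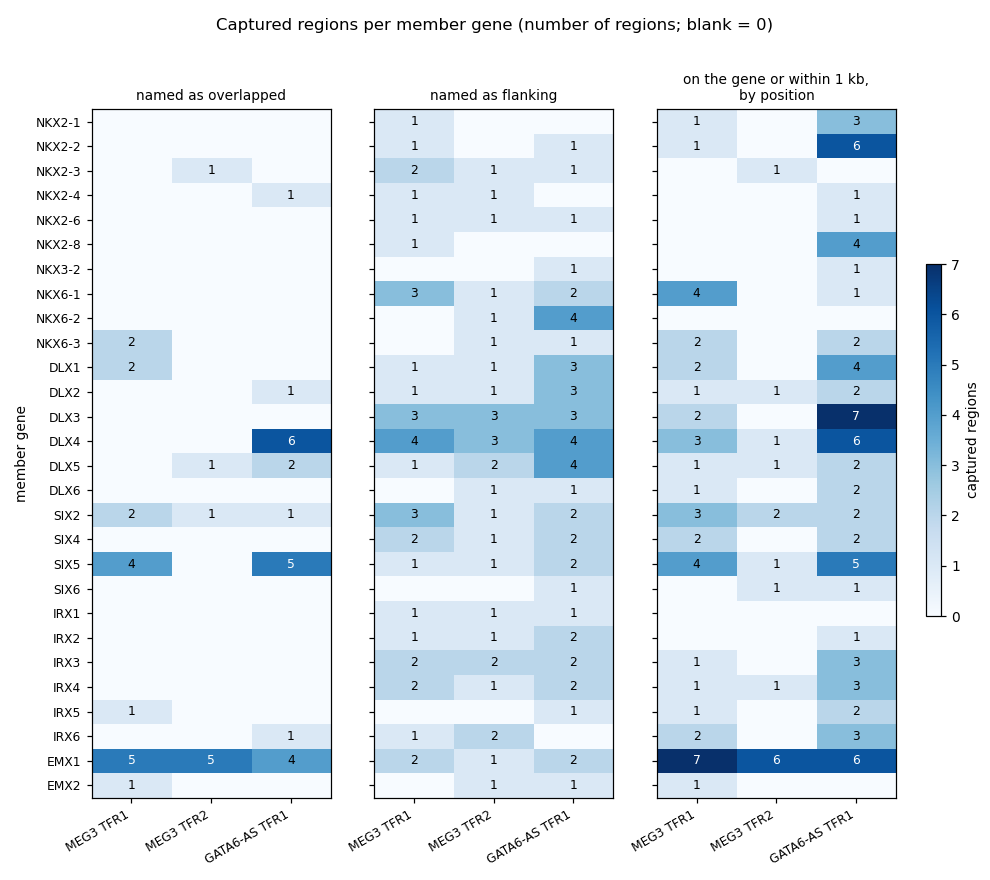
Number of captured regions per member gene (rows) and oligo (columns), named by the authors as overlapped (left) or flanking (middle), and on the gene or within 1 kb by position (right), with darker blue for more regions. EMX1 has 6 or 7 regions with each oligo by position, and the MEG3 TFR2 column is mostly blank in the right panel, with regions at 9 genes.

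IRX genes lie in clusters on chromosomes 5 and 16 and pattern the heart and neural tissue. IRX4, a gene of the heart ventricles, was the one IRX gene with regions of all 3 oligos: 1 of MEG3 TFR1 at 2.62, 1 of MEG3 TFR2 at 2.03, and 3 of GATA6-AS TFR1 from 1.24 to 2.45. The lowest of these, 1.24, lay below the median of its whole list, 1.34, and the values of the MEG3 oligos lay above the medians of theirs, 1.41 and 1.44. IRX2 held a single region, with GATA6-AS TFR1, at 2.78, the highest ratio of any region on a member or within 1 kb, but it was 150 bp wide, the smallest width in the lists. IRX3, active in heart conduction and hypothalamus, had 1 MEG3 TFR1 region at 2.18 and 3 GATA6-AS TFR1 regions from 1.25 to 1.78. IRX5, its neighbour with related roles, had 1 and 2 such regions, at 1.54 and at 0.79 and 2.05, all outside the gene body. IRX6 had 2 MEG3 TFR1 regions at 1.35 and 1.87, and 3 GATA6-AS TFR1 regions from 1.43 to 1.55. At IRX1 there were 0 regions on the gene or within 1 kb. The widest MEG3 TFR1 region that names a member, 1400 bp at chr5:3584001-3585400 with a ratio of 2.61, lay 10432 bp below it.

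Over all members, 7 genes (DLX2, DLX4, DLX5, SIX2, SIX5, IRX4 and EMX1) had a region on them or within 1 kb with each of the 3 oligos, 12 with 2, 7 with 1, and NKX6-2 and IRX1 with 0. Of all protein-coding genes, 48.1% had one with each oligo and 14.8% with 0, beside 25% and 7.14% of the members. The no-oligo libraries are shared, so captured regions of several oligos at 1 gene do not count as repeated evidence. The 40 MEG3 TFR1 regions had a median log2 ratio of 1.54 (0.76 to 2.66), the 15 MEG3 TFR2 regions 1.52 (0.69 to 2.45) and the 70 GATA6-AS TFR1 regions 1.43 (0.76 to 2.78). The medians of the whole lists were 1.41, 1.44 and 1.34. The members' ranges lie on both sides of these medians with each oligo.

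**Figure D4:**
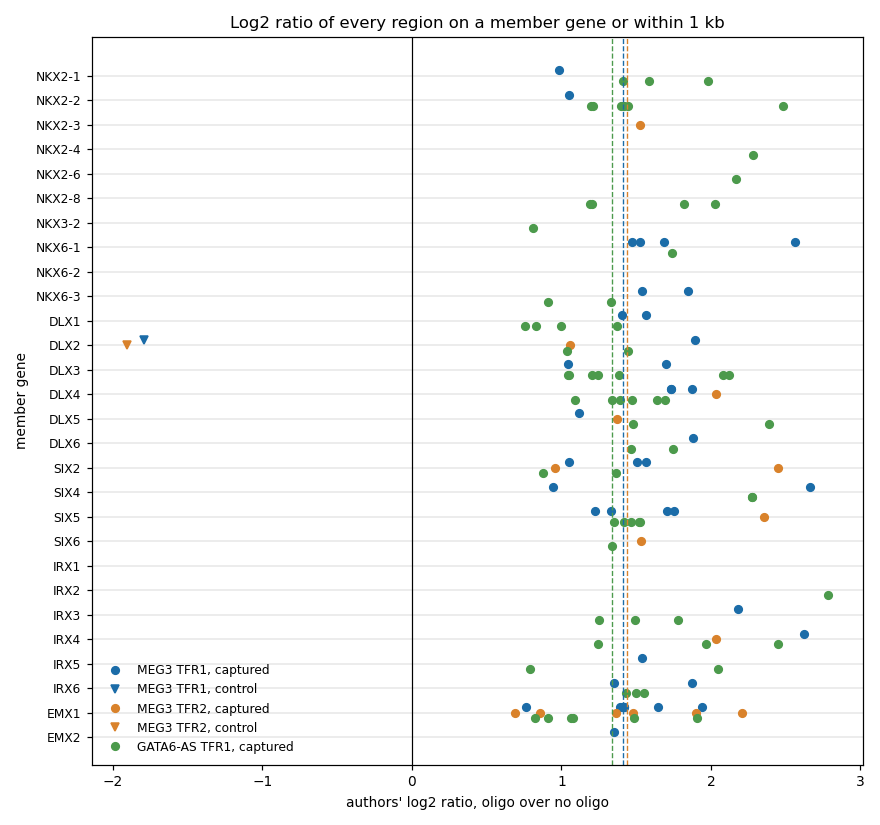
Authors' log2 ratio (x axis, oligo over no oligo) of every region on a member gene (rows) or within 1 kb, with circles for captured and triangles for control regions, coloured by oligo; dashed lines are the medians of the whole captured lists. Points of each oligo lie on both sides of the dashed lines, and 2 triangles, both at DLX2, lie under 0.

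**Figure D5:**
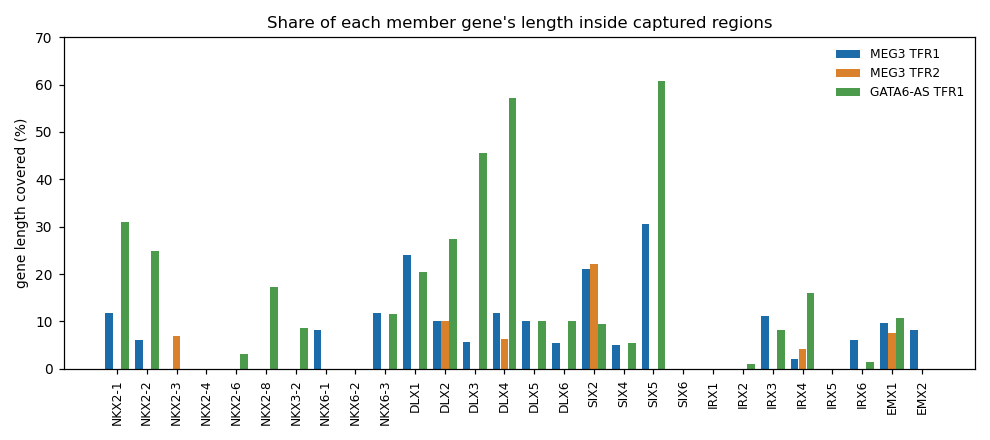
Share of each member gene's length that lay inside captured regions (percent, y axis), with 1 bar per oligo. SIX5 (60.8%), DLX4 (57.1%) and DLX3 (45.5%) stand highest with GATA6-AS TFR1, and SIX2 is the member most covered by MEG3 TFR2 (22.2%).

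The control lists, which hold regions with more signal without an oligo, named 0 of the 28 genes as overlapped with each oligo, beside 19.1% of all protein-coding genes for MEG3 TFR1, 17.5% for MEG3 TFR2 and 31.8% in the GATA6-AS TFR1 list. By position, control regions also lay on 0 member bodies, beside 21.3%, 19.4% and 40.0%. Within 1 kb of a gene end, MEG3 TFR1 and MEG3 TFR2 control regions were found at 1 member, DLX2 (beside 2.44% and 2.32%), and GATA6-AS TFR1 control regions at 0 (beside 6.18%). On the gene or within 1 kb the counts were the same, 1, 1 and 0, beside 22.2%, 20.3% and 41.7%. Of the 53 other homeobox genes, 6, 4 and 14 had a control region on the gene body. The smaller length of the members goes with these counts as well, and its part was not tested.

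As overlapped or flanking genes, 4 members were named in the MEG3 TFR1 control list (14.3%, beside 28.6%), 4 in that of MEG3 TFR2 (14.3%, beside 26.2%) and 13 in that of GATA6-AS TFR1 (46.4%, beside 53.9%). NKX6-1, DLX1, DLX2 and DLX5 were the members named in all 3 control lists. Between DLX1 and DLX2 lay a control region of MEG3 TFR1 (log2 ratio -1.79), of MEG3 TFR2 (-0.95) and of GATA6-AS TFR1 (-0.94). A second MEG3 TFR2 control region there, which named DLX2-AS1 and neither member, had the lowest of the 4 ratios, -1.91. Further above DLX5 each control list had a region starting at the same base, chr7:97111701, with ratios of -1.74 in the GATA6-AS TFR1 list, -2.28 in that of MEG3 TFR1 and -2.91 in that of MEG3 TFR2. Around NKX6-1 the ratios were -1.97 and -1.84 with MEG3 TFR1, -1.78 with MEG3 TFR2, and from -1.82 to -1.61 with GATA6-AS TFR1. Because the no-oligo libraries are the same in the 3 comparisons, a control region that recurs at 1 place does not count as repeated evidence.

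The other 9 members with a control name had 1 region each, with GATA6-AS TFR1. The ratios were -0.83 above NKX2-3, -1.27 below NKX2-6, -1.25 below NKX3-2 and -1.0 below NKX6-3. They were -1.81 below SIX4, -1.01 below SIX5 and -1.55 below SIX6, and -1.09 below IRX3 and -1.58 below IRX5. The closest of them lay 1377 bp from NKX2-3 and the farthest 68189 bp from SIX4, so these values describe the neighbourhood of the genes and not the genes.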

How the data were processed

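The 8 libraries were read through 6 lists of regions that the authors deposited. Per the submitters' processing notes, reads were handled with FastQC and BWA 0.7.15-r1140 on build hg38. For the region caller and the scaling, the sources used here give nothing. The authors deposited 1 log2 ratio per region, whose base was read from the values: 2 to that power was a ratio of whole numbers (denominator at most 400, within 3e-10) for 98.18% to 99.96% of a list. Depth, counting error and the meaning of those whole numbers are unknown. The pair of libraries per group comes from independent experiments, per the labels' protocols, but no value per library was given.

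Authors' gene names were split and matched to RefSeq GRCh38.p14, with coordinates printed from 1. Positions used overlap of at least 1 bp, gene ends within 1 kb, and the 19126 autosomal protein-coding genes as background. SHFM1, an old symbol shared by DLX5 and another gene (20 names), was not counted. Members, lists and rules were chosen with earlier results of these data known. All 28 genes were accounted for. Another gene of the same families, not a member, is not reported here. Single regions were described for genes named with all 3 oligos, the 3 highest overlapped members per oligo, the widest regions and control regions. Regions by position, given for the other genes, were added after their values were seen. Sequences were chosen by overlap of promoter windows off chromosome 8. The interval code was tested on simulated data. Alternatives covered the naming rule, ratio size, width, joining within 200 bp and promoter overlap of 150 bp. Scripts ran in Python 3.11.15 (pandas 2.3.3, numpy 2.4.6, matplotlib 3.10.9).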

Additional observations from a re-analysis of the deposited data

How the results depend on the processing

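The lists hold no value per library, so neither the spread between libraries nor a fit without one of them could be had, and depth sets no limit that can be stated. No paired analysis was possible because the lists carry no value per library. Of 84 values of 18 results under alternatives, 54 stayed within 1.5 times or the stated spread and 30 moved. These results are counts and medians of captured ratios, which cannot turn direction. The members' standing against all protein-coding genes did change with the rule. With each oligo their share was below the background by overlapped names and above it once flanking names counted.

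The rule for naming moved the counts most. For MEG3 TFR1, 7 members named as overlapped became 24 with flanking names, 18 by overlap with the RefSeq gene, 19 with 1 kb added (chosen after seeing the data) and 17 at gene ends. For MEG3 TFR2, 4 became 22 with flanking names and 9 with 1 kb added. For GATA6-AS TFR1, 8 became 26, 20, 24 and 22 under the same rules, and 5 at a log2 ratio of at least 1.5. Regions named as overlapped numbered 17, 8 and 21. With flanking names they numbered 51, 37 and 65, at a ratio of at least 1.5 they numbered 8, 4 and 7, and by overlap with the RefSeq gene 31 and 47 for MEG3 TFR1 and GATA6-AS TFR1. In the 50% of each list with the largest ratios, 9 remained for MEG3 TFR1 and 5 for MEG3 TFR2. Control counts of 0 members became 4, 4 and 13 with flanking names (4, 3 and 14 regions), and 1 member for each MEG3 oligo with 1 kb added. Promoters of 2 members with a MEG3 TFR1 region became 1 at a ratio of at least 1.5. Joining nearby regions, widths of at least 300 bp and promoter overlap of at least 150 bp left their counts within 1.5 times.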

Other observations

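Captured regions also named transcripts that run opposite to member genes, and some of these regions are among those given for the members. EMX2OS, transcribed opposite to EMX2, was named as overlapped by 7 GATA6-AS TFR1 regions (log2 ratios from 1.11 to 2.14), 2 MEG3 TFR1 regions (0.98 and 1.40) and 2 MEG3 TFR2 regions (1.04 and 2.06), whereas EMX2 itself was named as overlapped by 1 region. DLX6-AS1, a long RNA of the DLX5 and DLX6 locus, was named as overlapped by 3 MEG3 TFR1 regions of up to 1.88, 1 MEG3 TFR2 region at 1.07 and 1 GATA6-AS TFR1 region at 1.88. It was also named as overlapped by 1, 2 and 2 control regions of the same oligos, while the member genes were named so by 0. DLX2-AS1 was named as overlapped by 2 MEG3 TFR1 regions (0.88 and 1.90) and 3 GATA6-AS TFR1 regions from 1.02 to 1.45. The MEG3 TFR1 region at 1.90 and the GATA6-AS TFR1 region at 1.45 are those given for DLX2, and the MEG3 TFR1 region of DLX6-AS1 at 1.88 is the one given for DLX6. DNA has both strands, so a region on such a transcript cannot be assigned to it or to the gene it faces where the 2 overlap.

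Some genes of the same families are not members. SIX3, an eye and forebrain regulator, had 3 MEG3 TFR1 regions on it or within 1 kb (0.82 to 2.28) over 24% of its length and 5 GATA6-AS TFR1 regions (0.94 to 1.75). NKX2-5, a heart regulator, had 1 MEG3 TFR2 region at 1.39 and 1 GATA6-AS TFR1 region at 1.06. NKX1-1 had 1 MEG3 TFR1 region at 2.52 and 3 GATA6-AS TFR1 regions from 1.0 to 2.52, and NKX1-2 had 1 GATA6-AS TFR1 region at 1.14. Control regions lay on or within 1 kb of 0 of these named genes.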
